A study of Mus musculus with 7 samples.

Results

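The 10 genes described here, Ltf, Camp, Ngp, Lcn2, Mmp8, Mmp9, Cd177, Olfm4, Retnlg and Ly6g, encode proteins of the secondary and tertiary granules of mouse neutrophils or markers of the same maturation stages. They were chosen by gene symbol, with earlier results of these data known. All 10 were among the 34305 rows of the table, and all 10 were among the 14808 genes that passed the filter on low counts. Poly(A) RNA of mouse blood-forming stem and progenitor cells (HSPCs), grown in culture, was sequenced as 7 libraries. Of these, 3 came from cells overexpressing MN1, a co-regulator of transcription and a myeloid leukaemia oncogene, and 3 from cells overexpressing MN1pQdel, the MN1 protein without its polyglutamine stretch. A single library, noTD, came from cells with no overexpression. The series text describes it as untransduced, whereas its source label is the same as that of the transduced samples.

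Per the labels, all groups shared medium with IL-3, IL-6 at 10 ng/mL and stem cell factor at 20 ng/mL. The protocol describes transduction with the respective plasmid, sorting and 7 to 9 days in culture, and does not say which of these steps the noTD cells went through. Mouse strain and age, the plasmids' promoter and the day of each library were not given in the sources used here. GEO's series text calls the transduced samples independent without saying if that means separate animals. The p-values therefore measure the spread between these samples.

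Neutrophils fill their granules in an order. Primary granules form at the promyelocyte stage, secondary (specific) granules at the myelocyte and metamyelocyte stages, and tertiary (gelatinase) granules in band cells, and a protein is sorted largely by when its gene is expressed. The transcription factor C/EBP epsilon, encoded by Cebpe, is required for the secondary granule stage, and mice without it lack secondary granule proteins.

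Promoter sequence is shown for 4 of the genes to place the C/EBP motif beside the expression values below: Ltf and Ngp for the secondary granules, Mmp8 for the gene with the smallest change and Ly6g for the gene with the largest. Sequences are RefSeq's for GRCm38.p6, from 250 bases before the RefSeq start site up to that start site or the first annotated exon base. All 4 lie on the plus strand and run 5′ to 3′, and capitals mark each match to TTGCNNAA on either strand, where N is any base. The windows are chr9:111019042-111019270 for Ltf, chr9:110419558-110419746 for Ngp, chr9:7558179-7558428 for Mmp8 and chr15:75155011-75155239 for Ly6g.
Ltf: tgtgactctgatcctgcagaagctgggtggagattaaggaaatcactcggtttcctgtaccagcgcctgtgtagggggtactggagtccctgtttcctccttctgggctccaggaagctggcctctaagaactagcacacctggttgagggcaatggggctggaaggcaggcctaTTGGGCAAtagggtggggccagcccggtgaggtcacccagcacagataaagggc
Ngp: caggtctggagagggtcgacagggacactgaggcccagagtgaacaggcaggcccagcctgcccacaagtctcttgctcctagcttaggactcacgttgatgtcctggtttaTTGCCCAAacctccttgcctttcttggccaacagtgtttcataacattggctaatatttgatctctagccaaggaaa
Mmp8: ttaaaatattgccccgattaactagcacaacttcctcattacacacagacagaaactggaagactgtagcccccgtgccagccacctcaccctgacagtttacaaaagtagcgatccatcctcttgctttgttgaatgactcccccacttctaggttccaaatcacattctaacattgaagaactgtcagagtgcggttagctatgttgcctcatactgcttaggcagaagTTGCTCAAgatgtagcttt
Ly6g: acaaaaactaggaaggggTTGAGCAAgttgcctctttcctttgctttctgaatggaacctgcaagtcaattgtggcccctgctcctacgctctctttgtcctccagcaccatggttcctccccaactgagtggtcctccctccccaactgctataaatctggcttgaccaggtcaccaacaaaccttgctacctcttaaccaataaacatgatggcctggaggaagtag
The match began 75 bases before the RefSeq start in Ltf, 138 bases before it in Ngp, 19 in Mmp8 and 232 in Ly6g. Ngp held another match 11 bases before the start, inside the annotated exon. Ly6g has a second RefSeq start further downstream, and the 250 bases before that start held no match.

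RefSeq promoters were found for 9 of the 10 genes, all but Mmp9. The C/EBP motif occurred in 6 of these 9 (Ltf, Ngp, Lcn2, Mmp8, Retnlg and Ly6g) and in 9.57% of all 32536 promoter windows of 250 bases. Camp, Cd177 and Olfm4 held no such match. The PU.1 motif GAGGAA occurred in 6 of 9 (Ltf, Lcn2, Mmp8, Cd177, Olfm4 and Ly6g) and in 23.4% of all windows. The GFI1 motif AAATCA was found in Ltf and Mmp8 and in 12.3% of windows, and the TATA box TATAAA in Cd177 and Ly6g and in 12.3% of windows. The RUNX motif TGTGGT was in 0 of 9 and in 14.0% of windows. A gene was counted if any of its windows held a match, and Ly6g has a window for each of its starts, whereas the percentages count single windows. Both strands were searched for every motif. No motif contains another, and matches of different motifs may overlap. A match describes the letters of the window, and binding was not measured.

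Library totals ran from 38210660 to 67728658 counts. Mn1 itself stood at 287 to 314 CPM (counts scaled to a common library size by TMM over all 7 libraries) in MN1, at 404 to 728 CPM in MN1pQdel and at 33.6 CPM in noTD. The sources used here do not say whether the plasmids carry the mouse or the human sequence, and the table does not separate plasmid from endogenous transcript. Mn1 was lower in MN1 than in MN1pQdel (log2 fold change -1.05, SE 0.23, adjusted p = 0.0282). In fits that each dropped 1 library, Mn1 passed only without MN1pQdel replicate 2 (adjusted p = 0.000752) and missed the threshold without each of the other 5 (adjusted p = 0.075 to 0.104). MN1pQdel replicate 2 stood apart from the other libraries of its group. Its summed eosinophil markers were 235 CPM against 3401 and 3647 in MN1pQdel replicates 1 and 3, and its mast cell markers 2411 CPM against 14882 and 17813. Results on the granule genes are therefore also given without it where they differ.

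Every one of the 10 granule genes was lower in MN1 than in MN1pQdel. All 10 passed an adjusted p of 0.05 in edgeR's quasi-likelihood test with Benjamini-Hochberg adjustment over all genes tested, and 11.1% of all genes tested passed in that direction (6.08% in the other). The median log2 fold change of MN1 over MN1pQdel was -3.52 over the 10 genes and -0.01 over all genes tested. For all 10 genes the highest MN1 library lay below the lowest MN1pQdel library, which held for 21.7% of all genes tested. The 10 genes together took 0.0960% to 0.202% of all counts in MN1, 1.12% to 1.59% in MN1pQdel and 1.73% in noTD. In bulk samples, fewer cells of a type and less RNA per cell cannot be told apart.

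**Figure D1:**
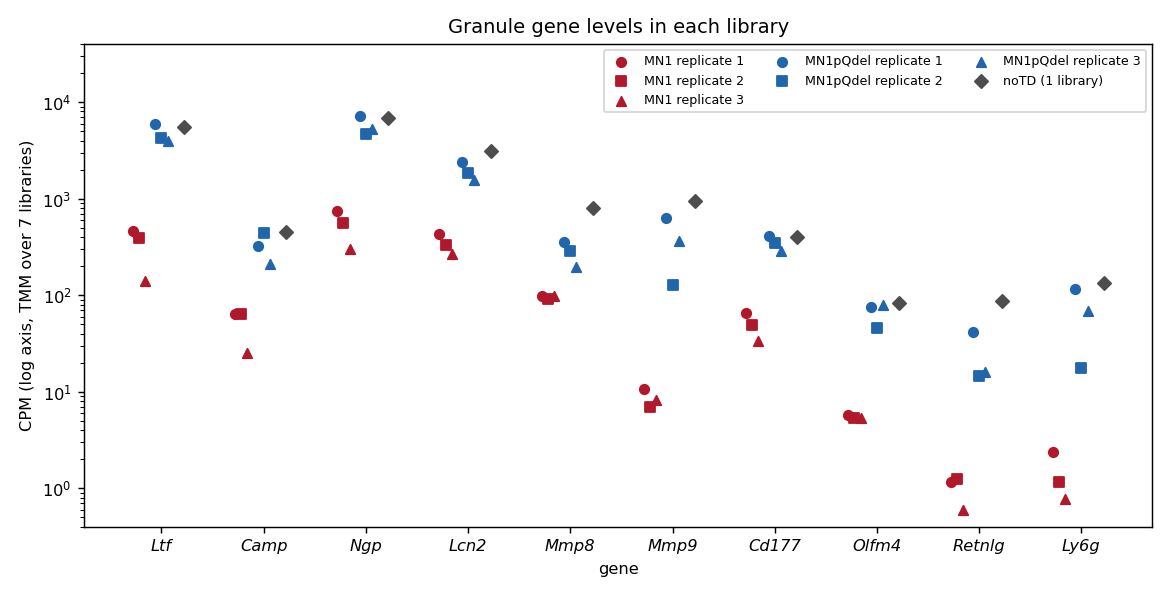
Level of each granule gene in each of the 7 libraries, in CPM on a log axis; circles, squares and triangles are replicates 1, 2 and 3, and the grey diamond is the single noTD library. For every gene the 3 MN1 points lie below the 3 MN1pQdel points and below noTD, and the MN1pQdel points spread widest for Mmp9 and Ly6g.

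Among the antimicrobial proteins of the secondary granules, Ltf encodes lactoferrin, which binds iron (chromosome 9, 111019271 to 111042767, plus strand; these and the coordinates below are GRCm38, from the GENCODE M21 annotation, in which all 10 are protein-coding genes). Ltf stood at 459, 394 and 141 CPM in MN1 replicates 1, 2 and 3, at 5986, 4262 and 3969 CPM in MN1pQdel replicates 1, 2 and 3, and at 5488 CPM in noTD. The groups did not overlap, the third MN1 library was the lowest of all, and noTD lay inside the MN1pQdel range. The mean was 331 ± 168 CPM in MN1 and 4739 ± 1090 CPM in MN1pQdel (SD, n = 3 each), a ratio of 14.3, with a log2 fold change of -3.85 (SE 0.47, adjusted p = 0.00613).

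Ngp encodes neutrophilic granule protein, a cathelin-related protein of the same granules (chromosome 9, 110419747 to 110423012, plus strand). It was measured at 749, 556 and 303 CPM in MN1, 7206, 4654 and 5253 CPM in MN1pQdel and 6769 CPM in noTD. The libraries fell in the same order within MN1 as for Ltf, and noTD again lay between the MN1pQdel libraries. Ngp was lower in MN1 by a log2 fold change of -3.42 (SE 0.37, adjusted p = 0.00526).

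Lcn2 encodes lipocalin 2 (neutrophil gelatinase-associated lipocalin), which binds bacterial siderophores (chromosome 2, 32384633 to 32388252, minus strand). Its levels were 429, 333 and 265 CPM in MN1, 2376, 1839 and 1554 CPM in MN1pQdel and 3123 CPM in noTD. Both groups were tight and well apart, and noTD was higher than any transduced library. Lcn2 was lower in MN1 by a log2 fold change of -2.50 (SE 0.24, adjusted p = 0.0052).

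Camp encodes the cathelicidin precursor, from which an antimicrobial peptide is cut (chromosome 9, 109847379 to 109849617, minus strand). It stood at 64.4, 63.7 and 25.0 CPM in MN1, 327, 438 and 210 CPM in MN1pQdel and 454 CPM in noTD. It was the only one of the 10 genes for which MN1pQdel replicate 2 was the highest library of its group. The log2 fold change was -2.68 (SE 0.43, adjusted p = 0.0126), and without MN1pQdel replicate 1 it was -2.67 and missed the threshold (adjusted p = 0.0545).

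Olfm4 encodes olfactomedin 4, a secondary granule glycoprotein found in a subset of neutrophils (chromosome 14, 79984081 to 80023139, plus strand). Its levels were 5.78, 5.39 and 5.30 CPM in MN1, 75.0, 45.7 and 78.5 CPM in MN1pQdel and 82.7 CPM in noTD. The 3 MN1 libraries were nearly level, with a mean of 5.49 ± 0.253 CPM (SD, n = 3), and every other library was at least 7.90 times higher than the highest of them. The log2 fold change was -3.61 (SE 0.24, adjusted p = 0.00385).

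The 2 matrix metalloproteinases differed in size of change. Mmp8 encodes neutrophil collagenase of the secondary granules (chromosome 9, 7558456 to 7568485, plus strand). It was measured at 98.4, 92.2 and 98.1 CPM in MN1, 355, 291 and 198 CPM in MN1pQdel and 809 CPM in noTD. The MN1 libraries differed by 1.07-fold among themselves, and the lowest MN1pQdel library was 2.01 times the highest MN1 library, the narrowest gap of the 10 genes. The log2 fold change of -1.56 (SE 0.21, adjusted p = 0.00815) was also the smallest of the 10.

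Mmp9 encodes gelatinase B, the enzyme after which the tertiary granules are named (chromosome 2, 164940780 to 164955850, plus strand). It stood at 10.8, 6.90 and 8.15 CPM in MN1, 634, 128 and 367 CPM in MN1pQdel and 948 CPM in noTD. The MN1pQdel libraries were spread 4.96-fold, with replicate 2 the lowest, yet that library was still 11.9 times the highest MN1 library, the widest gap of the 10 genes. The means were 8.61 ± 1.98 and 376 ± 253 CPM (SD, n = 3 each), a ratio of 43.7, and the log2 fold change was -5.47 (SE 0.63, adjusted p = 0.00554).

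Among the surface and secreted markers, Cd177 encodes a glycosylphosphatidylinositol-anchored protein of the neutrophil membrane and secondary granules (chromosome 7, 24743983 to 24760311, minus strand). Its levels were 65.7, 49.2 and 33.5 CPM in MN1, 410, 350 and 287 CPM in MN1pQdel and 399 CPM in noTD. The groups stood apart and noTD lay within the MN1pQdel range. Cd177 had a log2 fold change of -2.83 (SE 0.28, adjusted p = 0.0052).

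Ly6g encodes the surface antigen by which mouse neutrophils are usually sorted (chromosome 15, 75155240 to 75159126, plus strand). It stood at 2.37, 1.16 and 0.785 CPM in MN1, 116, 17.6 and 67.9 CPM in MN1pQdel and 134 CPM in noTD. MN1pQdel replicate 2 was 6.62-fold below replicate 1, the widest spread within a group among the 10 genes, and still above every MN1 library. The log2 fold change of -5.57 (SE 0.82, adjusted p = 0.00985) was the largest of the 10. The call was lost without MN1 replicate 2 (log2 fold change -5.43, adjusted p = 0.0511) and without MN1 replicate 3 (-5.25, adjusted p = 0.0502).

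Retnlg encodes resistin-like gamma, a small secreted protein of blood neutrophils (chromosome 16, 48872621 to 48874496, plus strand). It stood at 1.17, 1.25 and 0.594 CPM in MN1, which rested on 48, 54 and 28 counts. It reached 41.5, 14.6 and 16.2 CPM in MN1pQdel and 87.9 CPM in noTD. No library of MN1 came near those of MN1pQdel, and noTD was above all of them. Retnlg had a log2 fold change of -4.60 (SE 0.55, adjusted p = 0.00582).

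Ly6g and Cd177 belong to families of similar genes. Estimated counts that are not whole can arise where reads fit transcripts of more than 1 gene, and such values occurred for Ly6g in all 7 libraries, for Cd177 in 4 and for Retnlg in 1. The separate levels of these 3 genes are uncertain to that extent, and the values of the other 7 genes were whole in every library.

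**Figure D2:**
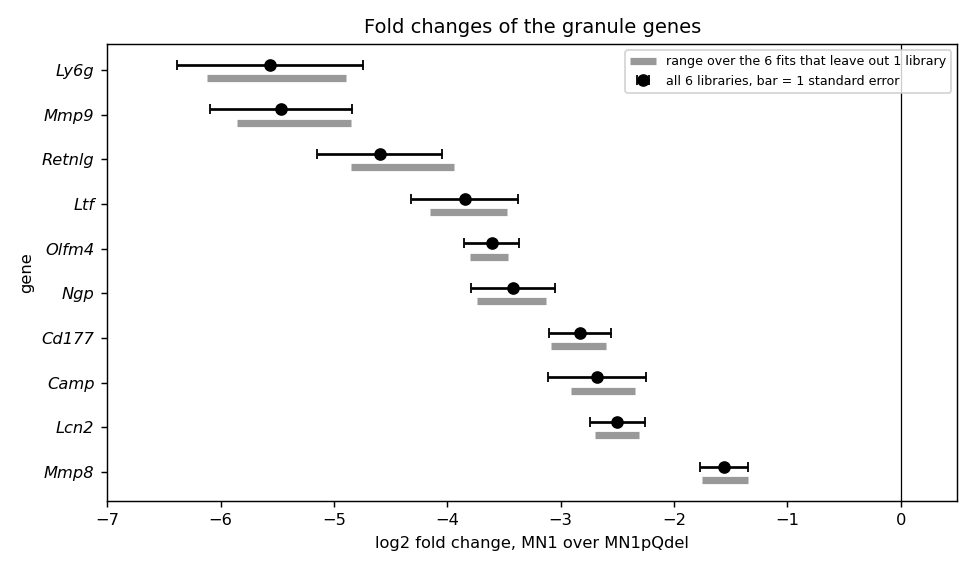
Log2 fold change of MN1 over MN1pQdel for each gene, ordered by size; black points with bars are the fit of all 6 libraries with 1 standard error, and grey bars span the 6 fits that each leave out 1 library. All 10 lie below 0 in every fit, and with all 6 libraries they run from -5.57 for Ly6g to -1.56 for Mmp8.

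When single libraries were left out, 8 of the 10 genes passed in all 6 fits, Camp in 5 and Ly6g in 4. Of all genes tested, 2.87%, 2.67% and 2.49% passed in the same direction without MN1 replicates 1, 2 and 3, and 2.73%, 21.3% and 4.51% without MN1pQdel replicates 1, 2 and 3. All 10 passed without MN1pQdel replicate 2, with a median log2 fold change of -3.67. All 10 also passed with DESeq2 (16.8% of all genes tested), with the replicate number as a block (17.0%), without both libraries numbered 2 (17.4%), and with library totals alone (7.70%), RLE scaling (10.6%), no filter on low counts (6.45%) or all 7 libraries in the fit (9.55%). Within each replicate number the MN1 library was below the MN1pQdel library for all 10 genes. For Mmp9 these differences were -5.87, -4.20 and -5.49 in log2 CPM for numbers 1, 2 and 3, and for Ly6g -5.59, -3.87 and -6.36. For Lcn2 they were -2.47, -2.47 and -2.55, a much narrower spread. Over all 14808 genes ordered by log2 fold change from the lowest, Ly6g ranked 19, Mmp9 20, Retnlg 35, Ltf 72, Olfm4 88, Ngp 108 and Mmp8 810.

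Within groups, the order of the libraries was partly shared. MN1 replicate 1 was the highest of its group for 9 of the 10 genes (28.0% of all genes tested), and MN1 replicate 3 the lowest for 8 (34.1%). In MN1pQdel, replicate 1 was the highest for 8 genes (28.7% of all genes tested), whereas the lowest library was split. Replicate 2 was the lowest for Ngp, Mmp9, Olfm4, Retnlg and Ly6g, and replicate 3 for the other 5. Across the 7 libraries, the log2 CPM of each gene correlated with the mean profile of the other 9 at r = 0.908 (Mmp8) to 0.998 (Lcn2). These points share the split into groups and the libraries, so the values are a description.

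Levels of different genes were compared per kilobase of the longest coding transcript, as CPM per kb. In MN1pQdel the order of the mean levels was Ngp (4668 CPM per kb), Lcn2 (2102), Ltf (1728), Camp (429), Cd177 (129), Mmp9 (119), Mmp8 (116), Ly6g (71.4), Retnlg (40.7) and Olfm4 (23.7). Of neighbours in that order, Ngp and Lcn2, Ltf and Camp, and Camp and Cd177 did not overlap between libraries, and the other neighbours did. In MN1 the order was Ngp (438 CPM per kb), Lcn2 (374), Ltf (121), Camp (67.4), Mmp8 (39.7), Cd177 (18.2), Mmp9 (2.71), Olfm4 (1.96), Retnlg (1.69) and Ly6g (1.53). There, Lcn2 and Ltf, Mmp8 and Cd177, Cd177 and Mmp9, and Mmp9 and Olfm4 were apart. By group means Ngp, Lcn2, Ltf and Camp led in both groups, although Camp and Mmp8 overlapped in MN1. In MN1 Mmp8 stood above Cd177 and Mmp9 below it, whereas neighbours among these 3 overlapped in MN1pQdel. In noTD the first 4 were the same, Ngp (5539 CPM per kb), Lcn2 (3413), Ltf (2001) and Camp (599), followed by Mmp8 (333), Mmp9 (299), Retnlg (148), Cd177 (147), Ly6g (142) and Olfm4 (29.5).

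The comparison with noTD asks where the level without overexpression lay. As noTD is 1 library, no test was made, and both differences below share it as their control. Every MN1 library was below noTD for all 10 genes (38.2% of all genes tested), and all 10 were at least 2-fold below it in mean log2 CPM with a prior count of 2 (14.9% of all genes tested). In MN1pQdel, 4 genes were at least 2-fold below noTD, namely Mmp8, Mmp9, Retnlg and Ly6g, against 3.08% of all genes tested. The noTD level lay above every MN1pQdel library for 7 genes (16.8% of all genes tested) and inside their range for Ltf, Ngp and Cd177 (59.2% of all genes tested).

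The 10 genes did not lie equally far below noTD. The log2 CPM difference of MN1 from noTD ran from -3.07 for Mmp8 and -3.07 for Cd177 to -6.80 for Mmp9, with Ly6g at -6.64, Retnlg at -6.46, Ltf at -4.22, Olfm4 at -3.90, Ngp at -3.75, Camp at -3.28 and Lcn2 at -3.22. The matching differences of MN1pQdel were -2.03 for Retnlg, -1.61 for Mmp9, -1.56 for Mmp8, -1.37 for Ly6g, -0.72 for Lcn2, -0.54 for Camp, -0.36 for Olfm4, -0.27 for Ngp, -0.24 for Ltf and -0.21 for Cd177. The medians were -3.83 for MN1 and -0.63 for MN1pQdel over the 10 genes, and 0.05 and 0.04 over all genes tested. As a share of the noTD level, the MN1 mean was 0.908% to 12.4% with a median of 7.28%, and the MN1pQdel mean 27.4% to 87.4% with a median of 66.6%.

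**Figure D3:**
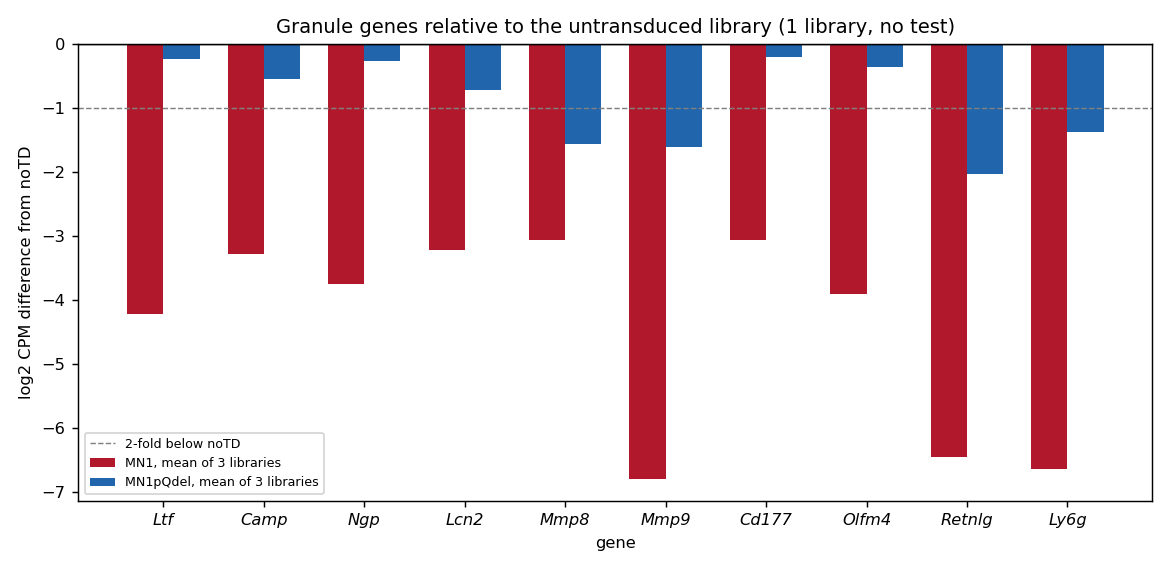
Difference of the mean log2 CPM of 3 MN1 (red) and 3 MN1pQdel (blue) libraries from the single noTD library, per gene; the dashed line marks 2-fold below noTD. All 10 MN1 bars pass the line, and the MN1pQdel bars of Mmp8, Mmp9, Retnlg and Ly6g do.

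By library, the median log2 difference from noTD over Ltf, Camp, Ngp and Lcn2 was -3.02, -3.42 and -4.33 in MN1 replicates 1, 2 and 3, and -0.15, -0.45 and -0.74 in MN1pQdel replicates 1, 2 and 3. Over Mmp8, Mmp9, Retnlg and Ly6g, a grouping chosen after their values were seen, it was -5.99, -6.44 and -6.98 in MN1 and -0.83, -2.74 and -1.70 in MN1pQdel. MN1pQdel replicate 2 was thus the lowest of its group for the second set and in the middle for the first.

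The list of 28 other specific and tertiary granule genes was lower in MN1 in most of its members. Of 27 tested, 21 were lower, 0 were higher and 6 did not pass, with a median log2 fold change of -1.86. Of all genes tested, 11.1% were lower and 6.08% higher. The 4 with the largest changes were Chil1, a chitinase-like protein (-3.94, SE 0.35, adjusted p = 0.00497), Mmp25, a membrane-bound metalloproteinase (-3.34, SE 0.58, adjusted p = 0.0157), Pglyrp1, which binds bacterial peptidoglycan (-3.12, SE 0.29, adjusted p = 0.00509), and Orm1, an acute-phase protein (-3.02, SE 0.56, adjusted p = 0.0189). Chil1 stood at 25.4, 21.5 and 16.7 CPM in MN1 and at 426, 185 and 356 CPM in MN1pQdel. Pglyrp1 stood at 58.2, 46.5 and 30.7 CPM in MN1 and at 488, 311 and 372 CPM in MN1pQdel. Neither overlapped between the groups, and both passed in 6 of 6 fits with a library left out. Mmp25 and Orm1 had low levels, with means of 0.194 and 0.589 CPM in MN1 and 1.96 and 4.75 CPM in MN1pQdel. Mmp25 missed the threshold without MN1 replicate 1 and without MN1pQdel replicate 1 (adjusted p = 0.0713 and 0.0634). Orm1 missed it without MN1 replicates 1, 2 and 3 and without MN1pQdel replicate 1 (adjusted p = 0.053 to 0.0732). The count lower in this list was 14 without MN1 replicate 2, 15 without MN1pQdel replicate 1 and 16 to 22 without each of the other 4 libraries. Here and for the lists below, 21.3% of all genes tested were lower without MN1pQdel replicate 2, and 2.49% to 4.51% without any other library.

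Genes of other late neutrophil products were also mostly lower in MN1. Of 23 tested, 15 were lower in MN1, 0 were higher and 8 did not pass, with a median log2 fold change of -1.42. The shares of all genes tested were 11.1% lower and 6.08% higher. The 4 largest were Asprv1, a protease (-4.92, SE 0.67, adjusted p = 0.00854), Padi4, the enzyme that citrullinates histones (-3.15, SE 0.41, adjusted p = 0.00742), Itgb2l, an integrin subunit relative (-2.83, SE 0.33, adjusted p = 0.00554), and Cxcr2, the receptor for neutrophil-attracting chemokines (-2.67, SE 0.42, adjusted p = 0.0116). Asprv1 stood at 1.24, 0.486 and 0.87 CPM in MN1, at 35.4, 8.43 and 34.0 CPM in MN1pQdel and at 95.6 CPM in noTD, with MN1pQdel replicate 2 the lowest of its group as for Mmp9 and Ly6g. Asprv1, Padi4 and Itgb2l passed in 6 of 6 fits with a library left out, and Cxcr2 missed the threshold without MN1 replicate 3 and without MN1pQdel replicate 1 (adjusted p = 0.0549 and 0.0516). The count lower was 10, 9 and 9 without MN1 replicates 1, 2 and 3, and 8, 15 and 11 without MN1pQdel replicates 1, 2 and 3.

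Primary granule genes, which are expressed before the other 2 granule classes, were mostly not past the threshold. Of 14 tested, 5 were lower in MN1, 0 were higher and 9 did not pass, with a median log2 fold change of -0.45. Of all genes tested, 11.1% were lower and 6.08% higher, with a median of -0.01, so the share lower in this list was above that of all genes. Among those lower were Fcnb, a ficolin (-2.31, SE 0.54, adjusted p = 0.0344), Cd63, a tetraspanin of the granule membrane (-1.70, SE 0.44, adjusted p = 0.0435), and Serpinb1a, an inhibitor of neutrophil serine proteases (-1.44, SE 0.25, adjusted p = 0.015). None of these 3 passed in all 6 fits with a library left out. Cd63 passed only without MN1pQdel replicate 2 (adjusted p = 0.115 to 0.147 without any other library), and Fcnb only without MN1pQdel replicate 2 or 3 (0.0723 to 0.107 otherwise). Serpinb1a missed the threshold without MN1 replicates 2 and 3 and without MN1pQdel replicate 1 (adjusted p = 0.0647 to 0.0717). The count lower was 1, 0 and 0 without MN1 replicates 1, 2 and 3, and 0, 7 and 2 without MN1pQdel replicates 1, 2 and 3. The share of all genes tested that were lower was 21.3% without MN1pQdel replicate 2 and 2.49% to 4.51% without any other library. Mpo, which encodes myeloperoxidase and was picked after its values were seen, stood at 2035, 2344 and 928 CPM in MN1, at 998, 4301 and 324 CPM in MN1pQdel and at 550 CPM in noTD. Its groups overlapped, with both the highest and the lowest library in MN1pQdel, and it did not pass the test (log2 fold change -0.09, SE 0.85, adjusted p = 0.949).

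**Figure D4:**
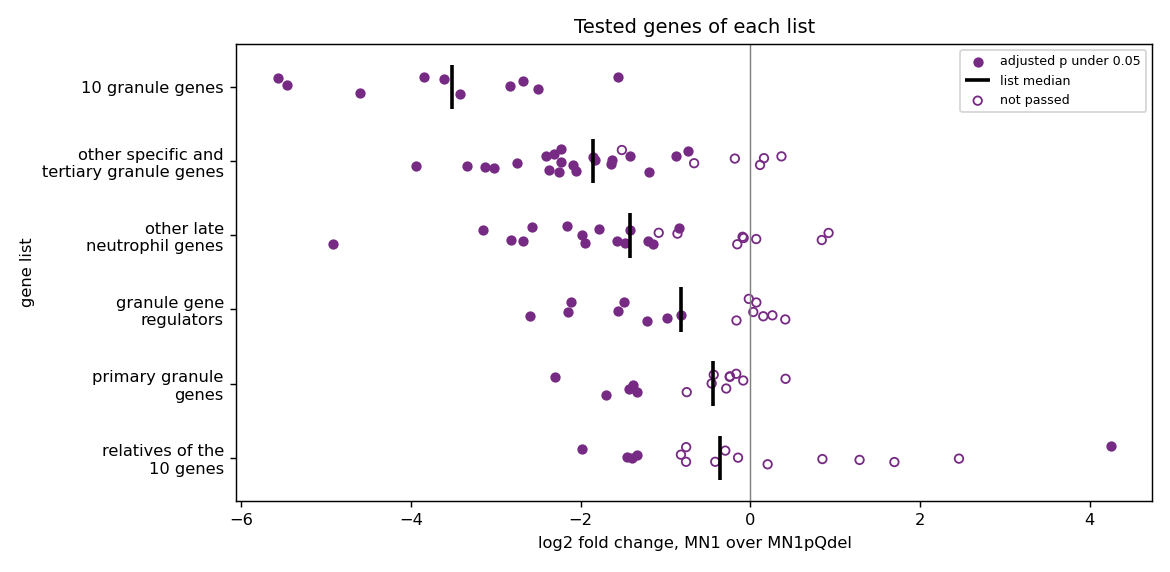
Log2 fold change of MN1 over MN1pQdel for every tested gene of 6 lists; filled points passed an adjusted p of 0.05, open points did not, and black lines are list medians. The medians run from -3.52 for the 10 granule genes to -0.45 for the primary granule genes and -0.36 for relatives of the 10 genes. Lists of other cell types are not shown.

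The median log2 difference from noTD over the 14 primary granule genes was -0.12, 0.03 and -0.40 in MN1 replicates 1, 2 and 3, and 0.24, 0.60 and 0.10 in MN1pQdel replicates 1, 2 and 3. In MN1 this median covers genes on both sides of noTD, of which some are given here after their values were seen. The MN1 means of Mpo (1769 CPM) and Elane (283 CPM) were above noTD (550 and 114 CPM). Those of Cd63 (370 CPM) and Serpinb1a (457 CPM) were below it (1258 and 1426 CPM). MN1 replicate 3 was the lowest library for the primary granule median and for the median over Ltf, Camp, Ngp and Lcn2. It was also the lowest for the median over Mmp8, Mmp9, Retnlg and Ly6g (-6.98). For Mmp8 and Mmp9 taken singly MN1 replicate 2 was the lowest, and the MN1 libraries differed by only 1.07-fold for Mmp8. MN1pQdel replicate 2 was the highest library of all for the primary granule genes and the lowest of its group for Mmp9, Retnlg and Ly6g.

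**Figure D5:**
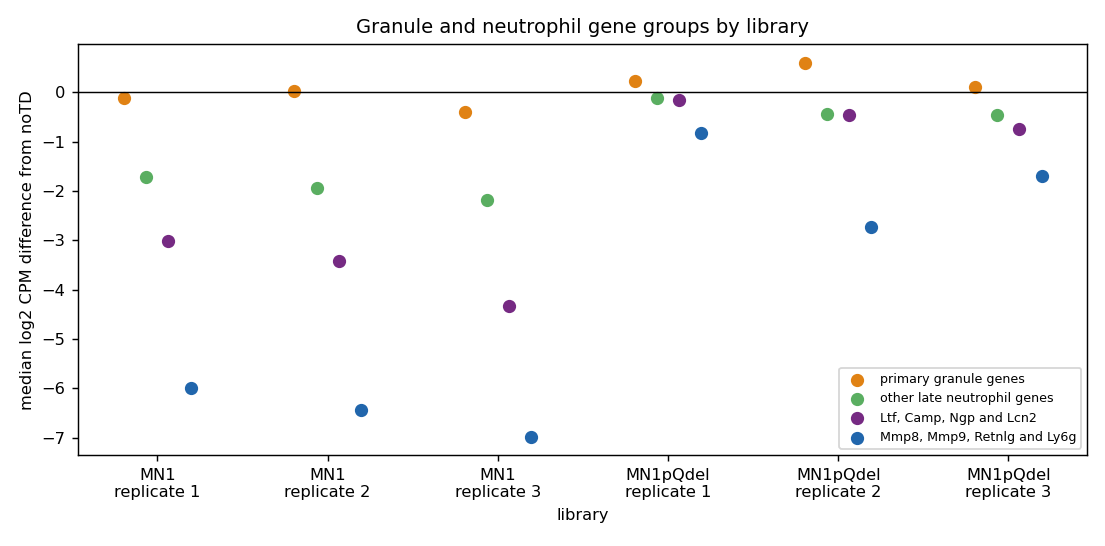
Median log2 CPM difference from noTD in each of the 6 transduced libraries for 4 gene groups, with noTD at 0. In the 3 MN1 libraries the median of the primary granule genes lies between -0.40 and 0.03, with single genes on both sides of noTD. The medians of Ltf, Camp, Ngp and Lcn2 lie between -4.33 and -3.02. Those of Mmp8, Mmp9, Retnlg and Ly6g lie between -6.98 and -5.99.

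In the lists of other specific and tertiary granule genes, other late neutrophil genes, primary granule genes and regulators, 0 genes were higher in MN1 in edgeR's test (6.08% of all genes tested). At an unadjusted p under 0.05 that number was also 0, and with DESeq2 it was 0. With the replicate block it was 1, Cxcl2 of the late neutrophil genes, named after its values were seen (adjusted p = 0.0481, against 0.471 without the block), while 13.7% of all genes tested were higher. In the fit that left out MN1pQdel replicate 2, the numbers higher in the order of the lists above were 2, 1, 1 and 2, while 20.6% of all genes tested were higher.

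Among 15 regulators of granule genes and neutrophil maturation, all tested, 8 were lower in MN1, 0 were higher and 7 did not pass. Their median log2 fold change was -0.81, and 11.1% of all genes tested were lower and 6.08% higher. Cebpe was measured at 37.4, 30.0 and 24.6 CPM in MN1, 121, 141 and 133 CPM in MN1pQdel and 125 CPM in noTD. The groups were far apart and noTD lay between the MN1pQdel libraries, and the log2 fold change was -2.11 (SE 0.18, adjusted p = 0.00436). Ets1 (-2.60, SE 0.20, adjusted p = 0.00423), Klf5 (-2.15, SE 0.41, adjusted p = 0.0201) and Cebpd (-1.56, SE 0.21, adjusted p = 0.00811), all transcription factors, were the others with the largest changes. Csf3r, the receptor for granulocyte colony-stimulating factor, was lower by a log2 fold change of -1.22 (SE 0.26, adjusted p = 0.0273). Cebpe, Ets1 and Cebpd passed in 6 of 6 fits with a library left out. Klf5 missed the threshold when any single MN1 library was left out (adjusted p = 0.0638 to 0.0823), and Csf3r missed it likewise and without MN1pQdel replicate 1 (adjusted p = 0.0666 to 0.0939). The count lower was 4, 4 and 4 without MN1 replicates 1, 2 and 3, and 4, 8 and 7 without MN1pQdel replicates 1, 2 and 3.

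Gfi1, a repressor needed for neutrophil maturation, stood at 64.1, 74.9 and 75.3 CPM in MN1, 27.8, 132 and 43.1 CPM in MN1pQdel and 37.5 CPM in noTD. MN1pQdel replicate 2 was above every MN1 library and the other 2 MN1pQdel libraries were below them. The log2 fold change was 0.07 (SE 0.53, adjusted p = 0.934), and without MN1pQdel replicate 2 it was 1.02 (adjusted p = 0.00939).

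Relatives of the 10 genes by protein family were mostly not past the threshold. Of 27, 16 were tested, 4 were lower in MN1, 1 was higher and 11 did not pass, with a median log2 fold change of -0.36. Of all genes tested, 11.1% were lower and 6.08% higher, so the share lower here was above that of all genes. Among the 4 lower were Ly6c1 (-1.99, SE 0.41, adjusted p = 0.025) and Ly6c2 (-1.45, SE 0.28, adjusted p = 0.0206), which are Ly6 surface proteins, and Retn, which encodes resistin (-1.40, SE 0.33, adjusted p = 0.0346). Higher was Ptgds, a lipocalin that makes prostaglandin D2 (4.25, SE 1.11, adjusted p = 0.0442), a call that the replicate block ended (log2 fold change 4.78, adjusted p = 0.0568). Of these, Ly6c2 missed the threshold without MN1 replicates 1 and 2 and without MN1pQdel replicate 1 (adjusted p = 0.0561 to 0.074), and in the 6 fits with a library left out Ly6c1, Retn and Ptgds passed in 1 each, that without MN1pQdel replicate 2. With any other library left out, their adjusted p was 0.0518 to 0.141. The count lower was 0, 0 and 2 without MN1 replicates 1, 2 and 3, and 0, 6 and 1 without MN1pQdel replicates 1, 2 and 3. The share of all genes tested that were lower was 21.3% without MN1pQdel replicate 2 and 2.49% to 4.51% without any other library.

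Camp, Ngp and Ltf lie within 1.20 Mb of chromosome 9 (109847379 to 111042767), an interval that holds 28 other protein-coding genes. Of these, 18 were tested, 2 were lower in MN1 and 1 was higher, with a median log2 fold change of -0.03. The lower ones, named after their values were seen, were Nbeal2, needed for platelet alpha granules (-1.54, adjusted p = 0.0127), and Lrrc2 (-2.22, adjusted p = 0.0444), and the higher one was Smarcc1, a chromatin remodelling subunit (0.85, adjusted p = 0.0235). The share lower, 11.1%, was that of all genes tested. Over the 5 coding genes on each side of every one of the 10 genes, 63 were tested, 10 of them (15.9%) were lower and 3 higher, with a median of -0.14.

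Outside the 10 genes, those most like their mean profile across the 7 libraries, by Pearson's r of log2 CPM over the 10218 genes that averaged 5 CPM or more, included Ncf4, Rhog and Mgst1 (0.998 each), and also Bin3, Msrb1, Pglyrp1, Dynlt1, Dgat1 and Selenop (0.996 to 0.998). Ncf4 stood at 76.3, 72.0 and 61.1 CPM in MN1, 211, 160 and 172 CPM in MN1pQdel and 245 CPM in noTD, so its groups stood apart as those of the 10 genes did, with a smaller span. The 7 points share their libraries and the split into groups, so likeness is a description.

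Markers of other blood cells also differed between the groups, and their part in the granule gene result was not tested. The summed eosinophil markers were 13.3 to 21.6 CPM in MN1, 235 to 3647 CPM in MN1pQdel and 3802 CPM in noTD (7 of 9 tested markers lower in MN1). The mast cell markers were 1323 to 3303, 2411 to 17813 and 15459 CPM (6 of 10 lower), and the basophil markers 145 to 412, 907 to 2486 and 2170 CPM (4 of 5 lower). The monocyte and macrophage markers were 711 to 846, 962 to 1632 and 1439 CPM (6 of 12 lower). Of all genes tested, 11.1% were lower and 6.08% higher. Leaving out MN1pQdel replicate 2 gave 9 eosinophil, 10 mast cell, 5 basophil and 8 monocyte and macrophage markers lower, and leaving out any other single library gave 1 to 6, 0 to 1, 0 to 2 and 0 to 3. The mast cell count was 10 with the replicate block, where 17.0% of all genes tested were lower. Without MN1pQdel replicate 2 that share was 21.3%, and without any other single library 2.49% to 4.51%. The erythroid markers were 19.8 to 43.3, 13.2 to 83.3 and 46.6 CPM, and the megakaryocyte markers 224 to 667, 342 to 939 and 800 CPM. The HSPC markers were 1206 to 1554, 886 to 1603 and 1619 CPM, with 1 of 9 lower and 3 higher (0 to 3 higher with single libraries left out, and 0 without MN1 replicate 3). B lymphoid markers summed to at most 8.59 CPM and T lymphoid markers to at most 1.23 CPM in any library. The median log2 fold change of MN1 over MN1pQdel was -7.01 for eosinophil and -4.58 for mast cell markers, both larger falls than the -3.52 of the 10 granule genes. It was -2.90 for basophil, -1.09 for monocyte and macrophage, -0.61 for megakaryocyte and -0.15 for HSPC markers. For erythroid markers it was 0.10 (6 tested) and for B lymphoid markers 1.02 (3 tested). Only 1 T lymphoid marker was tested, Cd8a, at -0.41.

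The sum of the 10 granule genes was 880 to 1886 CPM in MN1, 17527, 12039 and 12001 CPM in MN1pQdel replicates 1, 2 and 3 and 18295 CPM in noTD. In MN1pQdel replicate 2, the library of its group with the lowest eosinophil, mast cell and basophil markers, Ngp, Mmp9, Olfm4, Retnlg and Ly6g were also at their lowest of the group, and the other 5 genes were not.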

How the data were processed

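Values in the deposited table are estimated counts per gene symbol, 1 column per library and not normalised. The submitters' processing notes name kallisto, DESeq2 and the GRCm38 build. Versions, transcript index and strand setting were not given in the sources used here. Of the values, 32.5% were not whole (tolerance 1e-06). In 26 rows, with 0.172% of all counts, a date stood in place of the symbol.

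Counts were rounded to whole numbers, filtered with filterByExpr on the MN1 and MN1pQdel libraries and scaled by TMM. MN1 (3 libraries) was tested against MN1pQdel (3 libraries) with edgeR's quasi-likelihood test (edgeR 4.0.16, limma 3.58.1, R 4.3.3), without covariates. P-values were adjusted by Benjamini-Hochberg over 14808 genes, and the threshold was 0.05. Fold changes are log2 of MN1 over MN1pQdel. Alternatives were DESeq2 1.42.0, other scalings, no filter, all 7 libraries in the fit and libraries left out. The steps were tested on simulated data that held no effect of the replicate number. Without a block, 20% of changes of 1 log2 unit and 75% of changes of 2 were recovered, and 5% of calls were false. With the replicate block these shares were 18%, 72% and 10.9%. A gene that did not pass may therefore still differ. Differences from noTD used log2 CPM with a prior count of 2 and no test, since noTD is 1 library. At 38210660 to 67728658 counts per library, the spread between libraries limits the precision of the abundant genes.

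The 10 genes and all lists were chosen with earlier results of these data known. Named were the 10 genes, Mn1, up to 4 genes per list (the largest absolute fold changes past the threshold), Cebpe, Csf3r and Gfi1 whatever their values, and the 10 genes most like the mean profile. Numbered predicted genes and Rik clones were left out. Some genes that this rule names are not reported here. Coordinates and transcript lengths are from GENCODE M21, matched by symbol.

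The replicate numbers come from the sample titles, which do not say what a number marks. Deviations from the group means correlated across genes at 0.368, 0.259 and 0.320 for libraries of the same number, and at -0.282 to -0.0602 for different numbers. Deviations cancel out within a group, so positive same-number values pull the others below them, and the negative values are no separate evidence of pairing. Each same-number value was above 0.1, so a replicate block, which treats the numbers as pairs, was run as an alternative. The main fit did not use the pairs.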

Additional observations from a re-analysis of the deposited data

How the results depend on the processing

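All 10 granule genes were lower in MN1 and passed under each of the 7 alternatives that left out no single library, with a median log2 fold change of -3.65 to -3.31. With single libraries left out, 9 to 10 passed. The number of all genes past the threshold moved more. It was 2544 in the main fit, 4351 with DESeq2, 4545 with the replicate block, 5247 without both libraries numbered 2, and 506 to 6394 with single libraries left out, the highest of these without MN1pQdel replicate 2. The replicate block changed no call among the 10 genes, with adjusted p from 0.00633 to 0.0119. It ended the call of Ptgds (adjusted p = 0.0568), and no filter on low counts ended that of Retn (adjusted p = 0.0539).

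The called genes of the other 4 granule and neutrophil lists together numbered 49, and 27 to 58 with single libraries left out. Gfi1 had a log2 fold change of -0.30 without MN1pQdel replicate 1 and -0.17 without MN1pQdel replicate 3, against 0.07 with all libraries, of 1.02 without MN1pQdel replicate 2 and of 1.00 without both libraries numbered 2. Scaling by library totals alone shifted the median of all genes by 0.20 on the log2 scale and took the share of called genes that were higher in MN1 from 35.4% to 61.8%. The causes were not tested. With 3 libraries against 3 and 1 noTD library, nothing here tests a difference from noTD, and levels near 1 CPM in MN1 (Retnlg, Ly6g) rest on 28 to 97 counts. Among the list genes, Mmp25, Orm1, Retn and Ly6c1 were lower still, with MN1 means of 0.194, 0.589, 0.245 and 0.637 CPM.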
